A study of Homo sapiens with 6 samples.

Results

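The 35 genes described here encode the enzymes of glycolysis, proteins that steer its flux or export its lactate, and the oxygen-sensing system of HIF with some of its targets, and they are 35 of the 62703 genes in the deposited tables. They were chosen by symbol, 17 as glycolytic enzymes, 6 as flux control or lactate export genes and 12 as oxygen-sensing genes or HIF targets, and each symbol matched a single Ensembl ID. The cells were H929, an established human multiple myeloma line labelled as wild type, and the values are mRNA levels from paired-end RNA sequencing. Of 6 libraries, 3 came from cells given 1 µM Mi-2, which inhibits the protease MALT1, and 3 from cells given its solvent DMSO, all collected after 24 h. Every title ends in the same biological replicate number and separate cultures are not mentioned. The p-values thus reflect only how these libraries spread, which may be technical. The series asks how MALT1 inhibition acts on NF-κB signalling and cell death in myeloma, and its labels say nothing of glucose use or oxygen.

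Glycolysis splits glucose into pyruvate in a chain of cytosolic enzymes, and lactate dehydrogenase then turns pyruvate into lactate, which monocarboxylate transporters carry out of the cell. Many tumour cells, myeloma cells among them, run this route even where oxygen is present. The transcription factor HIF1 joins an oxygen-regulated subunit, encoded by HIF1A, to the stable subunit ARNT. Prolyl hydroxylases of the EGLN family mark the oxygen-regulated subunit for destruction through VHL while oxygen is plentiful, and when it is not, HIF1 raises transcription of most glycolytic enzymes and of genes such as VEGFA, BNIP3 and CA9. MYC also acts on several of the enzyme genes. In bulk RNA, fewer cells of a type and less RNA per cell cannot be told apart.

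Total estimated counts ran from 21938900 to 23756700 in the Mi-2 libraries and from 19980700 to 22651600 in the DMSO libraries. All 7 plasma cell markers were above 1 TPM on average (TPM are transcript values scaled for gene length and library size), with sums of 3412 to 3826 TPM with Mi-2 and 3060 to 4358 TPM with DMSO, and SDC1 and CD38 fell while IRF4 rose. Of 26 markers of other cell types, 5 averaged at least 1 TPM over the 6 libraries: CD3E, PECAM1, KRT18, HBB and HBA1. CD3E, PECAM1 and KRT18 rose with Mi-2. The T and NK cell list summed to 42.4 to 47.7 TPM with Mi-2 and 29.3 to 34.2 TPM with DMSO. The list of fibroblast, endothelial and epithelial markers summed to 82.9 to 119.9 TPM with Mi-2 and 67.3 to 83.7 TPM with DMSO. CD3D, COL3A1, PPBP and PF4 were at 0 in every library, and CD2, VWF and EPCAM at or below 0.59 TPM. Myeloid markers summed to 1.04 to 2.83 TPM with Mi-2 and 0.83 to 1.13 TPM with DMSO, and erythroid and platelet markers to 2.25 to 19.8 TPM with Mi-2 and 1.78 to 18.5 TPM with DMSO. The part of other cells in the values below was not tested. Library 1 of each group stood apart for the genes described here. It was the lowest of its 3 libraries in both groups for 25 of the 34 members tested, against 19.3% of all tested genes.

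Mi-2 treated H929 cells had lower levels of some glycolytic enzyme mRNAs and of the lactate transporter SLC16A1. None of the 11 oxygen-sensing genes and HIF targets tested among the members passed. With 11 genes this count cannot be told from the 6.03% called lower among all tested genes. At an adjusted p under 0.05 with edgeR, 5 of 17 enzymes fell (PFKM, PFKP, ENO1, ENO2 and LDHB), as did PFKFB3 and SLC16A1 of the 6 flux control and export genes, and none of the 34 members tested rose. Among all 16082 genes tested, 6.03% were called lower and 5.02% higher, 11.0% in all. The remaining member, CA9, a cell-surface carbonic anhydrase induced by HIF1, had too few counts to test, with 0, 8 and 1 in Mi-2 libraries 1, 2 and 3 and 1, 8 and 5.79 in DMSO libraries 1, 2 and 3. The median log2 fold change was -0.36 over the enzymes and -0.15 over the 11 tested oxygen-sensing genes and HIF targets, beside 0.00496 over all tested genes. A log2 fold change is given throughout as Mi-2 over DMSO, so negative values are lower with Mi-2. In 10 members, 6 enzymes among them, every Mi-2 library lay below every DMSO library, and in none was it the reverse, where such separation was seen for 16.6% (lower) and 15.7% (higher) of all tested genes. Calls depended on single libraries: without Mi-2 library 1, DMSO library 2 or DMSO library 3, or without both libraries numbered 1, none of the 7 members was called (adjusted p up to 0.134 with 1 library out), and 2 and 3 enzymes were called without Mi-2 library 2 and Mi-2 library 3. Of the members, limma on log2(TPM + 1) called ENO1 alone, and with no filter on low counts edgeR called 11 enzymes lower.

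**Figure D1:**
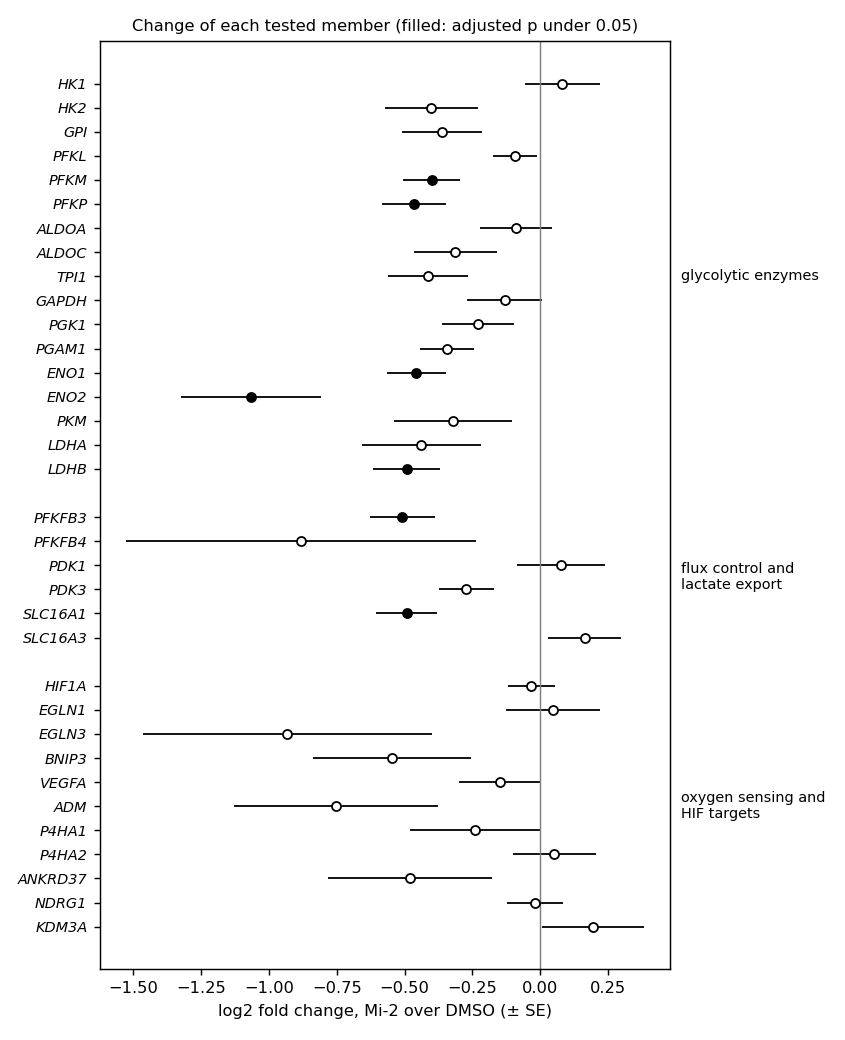
Log2 fold change of the 34 tested members, Mi-2 over DMSO, on the x axis with bars for the standard error, in 3 groups down the page. Filled points passed an adjusted p under 0.05: 5 enzymes, PFKFB3 and SLC16A1, all at negative values, and none of the oxygen-sensing genes and HIF targets.

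Hexokinases trap glucose in the cell as glucose 6-phosphate. HK2, the inducible form bound to mitochondria in many tumours, had 103, 155 and 131 CPM in Mi-2 libraries 1, 2 and 3 and 136, 204 and 174 CPM in DMSO libraries 1, 2 and 3. These are CPM, counts scaled to library size and normalised by TMM. The groups overlapped, and the log2 fold change of -0.40 ± 0.17 (SE) did not pass (edgeR adjusted p = 0.165). HK1, the broadly expressed form, differed by 0.08 ± 0.14, an error larger than the value. GPI, which makes fructose 6-phosphate and is the second enzyme, had 234, 301 and 336 CPM in Mi-2 libraries 1, 2 and 3 and 310.3, 409 and 402 CPM in DMSO libraries 1, 2 and 3, again with overlap (-0.36 ± 0.15, adjusted p = 0.147).

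Phosphofructokinase commits the sugar to glycolysis and is built from 3 kinds of subunit. PFKP, the platelet type and the one with the highest TPM here (151 ± 14.2 TPM with Mi-2 and 221 ± 53.3 TPM with DMSO), had 269.8, 333 and 307 CPM in Mi-2 libraries 1, 2 and 3 and 377, 484 and 395 CPM in DMSO libraries 1, 2 and 3. The highest Mi-2 library lay below the lowest DMSO library, and PFKP fell 1.38-fold (-0.47 ± 0.12, edgeR adjusted p = 0.0359). PFKM, the muscle type, had 69.6, 87.05 and 84.96 CPM in Mi-2 libraries 1, 2 and 3 and 98.04, 109.8 and 111 CPM in DMSO libraries 1, 2 and 3. It fell 1.32-fold without overlap (-0.40 ± 0.10, adjusted p = 0.0375). PFKL, the liver type, did not pass (-0.09 ± 0.08, adjusted p = 0.515), with 185 to 197 CPM with Mi-2 and 194 to 213 CPM with DMSO. In the GENCODE 29 annotation of GRCh38, PFKP lies on chromosome 10 (3066333 to 3137712, plus strand) and PFKM on chromosome 12 (48105139 to 48146404, plus strand).

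In the middle of the pathway no enzyme passed the edgeR test on filtered counts of all 6 libraries, with treatment as the only term. DESeq2 called TPI1 (adjusted p = 0.0294) and PGAM1 (adjusted p = 0.00995) lower, and not ALDOA, ALDOC, GAPDH or PGK1. ALDOA, the main aldolase, which splits the sugar into triose phosphates, had 813, 1020.01 and 1066 CPM in Mi-2 libraries 1, 2 and 3 and 877, 1069 and 1137 CPM in DMSO libraries 1, 2 and 3. ALDOC, the form named for brain, had 26.6 to 40.3 CPM with Mi-2 and 35.5 to 45.002 CPM with DMSO. Both overlapped between groups (-0.09 ± 0.13 for ALDOA and -0.31 ± 0.15 for ALDOC). TPI1, which interconverts the triose phosphates, had 186, 254 and 256 CPM in Mi-2 libraries 1, 2 and 3 and 255, 325 and 346 CPM in DMSO libraries 1, 2 and 3. Its highest Mi-2 value was just above its lowest DMSO value (-0.41 ± 0.15, adjusted p = 0.106). GAPDH, the oxidising step and often used as a reference gene, had 1481, 1677 and 2052 CPM in Mi-2 libraries 1, 2 and 3 and 1662, 1907 and 2131 CPM in DMSO libraries 1, 2 and 3 and differed by less than its error (-0.13 ± 0.14). PGK1, the first ATP-yielding kinase of the route, had 484, 633 and 534 CPM in Mi-2 libraries 1, 2 and 3 and 547, 729 and 658 CPM in DMSO libraries 1, 2 and 3, with overlap (-0.23 ± 0.13, adjusted p = 0.299). PGAM1, the phosphoglycerate mutase, had 365, 426 and 405 CPM in Mi-2 libraries 1, 2 and 3 and 454, 537 and 526 CPM in DMSO libraries 1, 2 and 3. It was separate between groups but stayed outside the threshold (-0.34 ± 0.10, adjusted p = 0.0564).

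Enolase makes phosphoenolpyruvate, and 1 of its forms, ENO2, had the change of largest size among the members that passed. ENO1, the ubiquitous form, had 1261, 1557 and 1505 CPM in Mi-2 libraries 1, 2 and 3 and 1822, 2102 and 2009 CPM in DMSO libraries 1, 2 and 3. It fell 1.37-fold with no overlap (-0.46 ± 0.11, edgeR adjusted p = 0.0284). ENO2, known as neuron-specific enolase and also a HIF1 target, had 7.71, 9.83 and 16.02 CPM in Mi-2 libraries 1, 2 and 3 and 18.2, 23.2 and 29.05 CPM in DMSO libraries 1, 2 and 3. Its highest Mi-2 library was below its lowest DMSO library, and it fell 2.095-fold (-1.07 ± 0.26, adjusted p = 0.0293). ENO1 lies on chromosome 1 (8861000 to 8879250, minus strand) and ENO2 on chromosome 12 (6913745 to 6923698, plus strand), where TPI1 (6867119 to 6870948) and GAPDH (6533927 to 6538374) are also found.

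PKM, the pyruvate kinase of proliferating cells, had 759, 1015 and 1248 CPM in Mi-2 libraries 1, 2 and 3 and 879.5, 1366 and 1535 CPM in DMSO libraries 1, 2 and 3. The spread inside each group was wider than the difference (-0.32 ± 0.22, adjusted p = 0.3803). LDHA, the lactate dehydrogenase subunit that favours lactate formation, had 941, 1618 and 1387 CPM in Mi-2 libraries 1, 2 and 3 and 1287, 2161 and 1902 CPM in DMSO libraries 1, 2 and 3. Its library 1 was the lowest of each group and its library 2 the highest, with a ratio of 1.72 between the extremes with Mi-2 and 1.68 with DMSO, and it did not pass (-0.44 ± 0.22, adjusted p = 0.235). LDHB, the subunit that favours the return to pyruvate, had 178, 234 and 237 CPM in Mi-2 libraries 1, 2 and 3 and 275, 307 and 331 CPM in DMSO libraries 1, 2 and 3. The groups were separate and LDHB fell 1.41-fold (-0.49 ± 0.12, adjusted p = 0.03404). It lies on chromosome 12 (21635342 to 21757857, minus strand). Processed pseudogenes of several of these enzymes could take reads from them, but the copies named after them (65 for GAPDH, 13 for PGAM1, 6 for LDHA, 4 for ENO1, 4 for TPI1 and 3 for LDHB) held at most 0.873% of the counts of gene and copies together in any library, the highest being for TPI1.

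**Figure D2:**
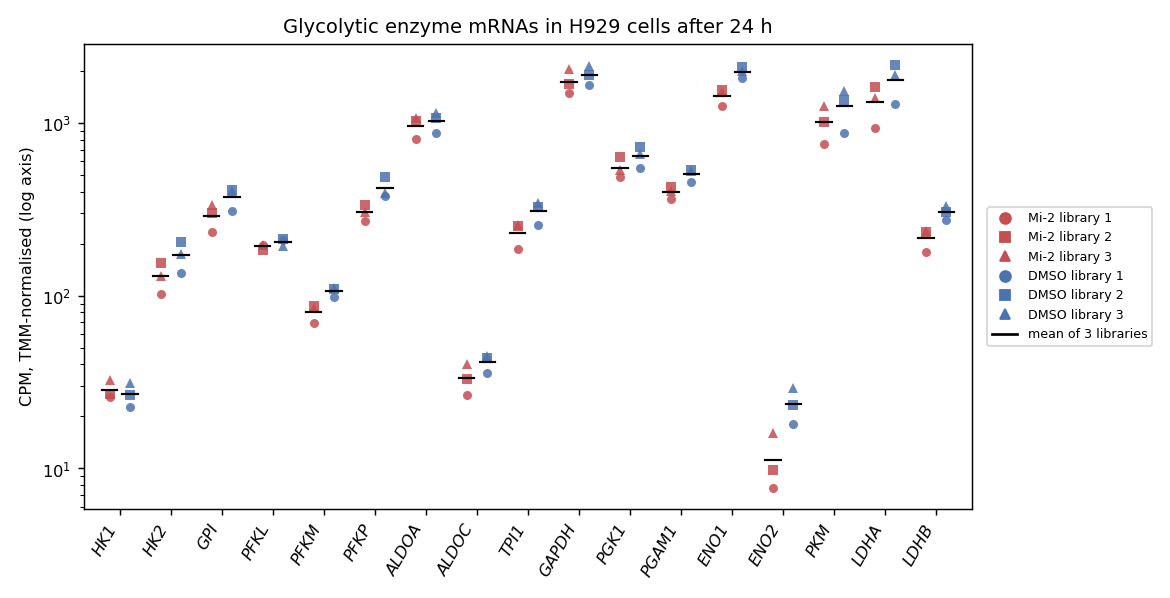
CPM of the 17 glycolytic enzymes on a log axis, in pathway order, with Mi-2 libraries to the left of DMSO libraries, a symbol for each library number and a bar at each mean. The circles of library 1 are lowest in both groups for 16 of the 17 enzymes, PFKL being the exception, and the groups are separate for PFKM, PFKP, PGAM1, ENO1, ENO2 and LDHB.

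The windows around the start of both enolases and both lactate dehydrogenases are shown because 3 of these 4 genes were called and because the pairs can be compared for the short sequence that HIF1 binds. Each is 300 bases, 250 before and 50 after the start, 5′ to 3′ on the gene's strand, from RefSeq on GRCh38.p14. They are chr12:6914330-6914629 (plus strand) for ENO2, chr1:8878637-8878936 (minus strand) for ENO1, chr12:21657793-21658092 (minus strand) for LDHB and chr11:18394313-18394612 (plus strand) for LDHA, which was added after its values were seen. Capitals mark ACGTG, one form of the core of the hypoxia response element, on either strand.
ENO2: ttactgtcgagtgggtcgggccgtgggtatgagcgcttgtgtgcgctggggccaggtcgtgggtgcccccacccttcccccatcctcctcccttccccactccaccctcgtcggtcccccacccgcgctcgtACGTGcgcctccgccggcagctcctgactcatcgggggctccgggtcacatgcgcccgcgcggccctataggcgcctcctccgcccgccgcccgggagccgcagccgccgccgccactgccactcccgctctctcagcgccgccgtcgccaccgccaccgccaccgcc
ENO1: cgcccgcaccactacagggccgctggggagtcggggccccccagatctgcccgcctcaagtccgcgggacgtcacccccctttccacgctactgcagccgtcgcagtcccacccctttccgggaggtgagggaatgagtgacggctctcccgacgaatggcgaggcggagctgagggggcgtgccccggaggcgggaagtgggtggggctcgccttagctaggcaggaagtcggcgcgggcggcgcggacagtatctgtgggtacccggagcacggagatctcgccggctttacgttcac
LDHB: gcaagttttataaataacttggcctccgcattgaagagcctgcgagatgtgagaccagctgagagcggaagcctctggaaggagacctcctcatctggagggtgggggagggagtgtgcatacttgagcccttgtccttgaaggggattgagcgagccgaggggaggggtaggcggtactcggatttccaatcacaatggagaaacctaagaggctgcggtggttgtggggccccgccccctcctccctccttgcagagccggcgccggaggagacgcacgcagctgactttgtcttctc
LDHA: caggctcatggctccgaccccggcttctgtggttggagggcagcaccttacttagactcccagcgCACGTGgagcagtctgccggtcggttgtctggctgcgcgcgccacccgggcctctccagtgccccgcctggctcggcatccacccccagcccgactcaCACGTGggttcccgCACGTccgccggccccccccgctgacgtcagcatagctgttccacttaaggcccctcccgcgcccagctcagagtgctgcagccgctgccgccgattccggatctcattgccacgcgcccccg
ENO2 had 1 match, whose first base stands 118 bases before the start, and LDHA had 5, of which 4 belong to 2 copies of CACGTG. That longer motif, the E-box that MYC binds, is its own reverse complement and so counts as a match on each strand. ENO1 and LDHB had no ACGTG in the window. The other core form, GCGTG, not in capitals, was found 2 times in ENO1, 1 time in LDHB, 1 time in LDHA and 0 times in ENO2. Among the 32 members with a window in the table, 14 held ACGTG (43.8%), against 7518 of 35116 promoters in all (21.4%). For CACGTG the counts were 5 of 32 members and 2548 promoters in all (7.26%), and for GCGTG 15 of 32 members and 12832 promoters (36.5%). Of the 6 called members with a window 1 held ACGTG and 3 held GCGTG, and of the other 26 members 13 held ACGTG and 12 held GCGTG. A match is a description of letters and not a bound site.

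Genes that set the flux differed among themselves. PFKFB3 makes fructose 2,6-bisphosphate, a strong activator of phosphofructokinase, and had 14.1, 17.3 and 17.6 CPM in Mi-2 libraries 1, 2 and 3 and 22.3, 23.03 and 24.4 CPM in DMSO libraries 1, 2 and 3. It was separate between groups and fell 1.42-fold (-0.51 ± 0.12, edgeR adjusted p = 0.0266). PFKFB4, a related bifunctional enzyme induced by HIF1, had 2.86, 13.5 and 9.06 CPM in Mi-2 libraries 1, 2 and 3 and 3.88, 29.9 and 12.96 CPM in DMSO libraries 1, 2 and 3. Its DMSO libraries alone spanned 7.71-fold, its Mi-2 libraries 4.71-fold, and its value of -0.88 ± 0.64 did not pass (adjusted p = 0.424). PDK1 is a pyruvate dehydrogenase kinase, which restrains pyruvate oxidation. It had 680.2, 593 and 496 CPM in Mi-2 libraries 1, 2 and 3. In DMSO libraries 1, 2 and 3 it had 679, 555 and 444 CPM. The groups overlapped (0.08 ± 0.16), and unlike the enzymes PDK1 was highest in library 1 of both groups. PDK3, another kinase of that family, was separate between groups, at 23.4 to 26.3 CPM with Mi-2 and 28.2 to 32.4 CPM with DMSO, without passing (-0.27 ± 0.10, adjusted p = 0.114). PFKFB3 is on chromosome 10 (6144934 to 6254644, plus strand).

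Of the 2 monocarboxylate transporters, SLC16A1 (MCT1) had 83.6, 108 and 101 CPM in Mi-2 libraries 1, 2 and 3 and 125, 151 and 137 CPM in DMSO libraries 1, 2 and 3. No Mi-2 library reached the lowest DMSO library, and SLC16A1 fell 1.41-fold (-0.49 ± 0.11, edgeR adjusted p = 0.0249). SLC16A3 (MCT4), the form induced by HIF1 in other cells, had 21.8, 19.1 and 19.04 CPM in Mi-2 libraries 1, 2 and 3 and 21.03, 15.6 and 16.9 CPM in DMSO libraries 1, 2 and 3. Its value was positive with overlapping groups (0.16 ± 0.14, adjusted p = 0.485). SLC16A1 is on chromosome 1 (112911847 to 112957013, minus strand).

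None of the oxygen-sensing members passed. HIF1A had 115, 132 and 114 CPM in Mi-2 libraries 1, 2 and 3 and 125, 125 and 119 CPM in DMSO libraries 1, 2 and 3, a difference of -0.03 ± 0.09 (edgeR adjusted p = 0.849). EGLN1, the main HIF prolyl hydroxylase, had 47.1, 58.8 and 50.9 CPM in Mi-2 libraries 1, 2 and 3 and 41.7, 67.1 and 42.9 CPM in DMSO libraries 1, 2 and 3 (0.05 ± 0.17), with DMSO library 2 the highest. EGLN3, a hydroxylase that HIF1 itself induces, was at 0.345 to 0.454 CPM with Mi-2 and 0.348 to 1.37 CPM with DMSO, under 1 CPM in every library but DMSO library 2 (-0.93 ± 0.53, adjusted p = 0.295).

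Several HIF targets spread widely within a group. BNIP3, a mitophagy receptor, had 38.7, 69.2 and 71.1 CPM in Mi-2 libraries 1, 2 and 3 and 51.2, 117 and 93.6 CPM in DMSO libraries 1, 2 and 3. ADM, the vasodilator peptide adrenomedullin, had 4.45, 5.303 and 3.23 CPM in Mi-2 libraries 1, 2 and 3 and 5.47, 12.3 and 4.06 CPM in DMSO libraries 1, 2 and 3. Both were highest in DMSO library 2, the groups overlapped in both, and neither passed (-0.55 ± 0.29, adjusted p = 0.261 for BNIP3 and -0.75 ± 0.38, adjusted p = 0.234 for ADM). The 44 pseudogene copies named after BNIP3 held 0.636 to 3.72% of the counts of gene and copies, more than for any other member. VEGFA, the growth factor of blood vessels, had 88.7, 99.2 and 106 CPM in Mi-2 libraries 1, 2 and 3 and 85.8, 135 and 106 CPM in DMSO libraries 1, 2 and 3 (-0.15 ± 0.15). P4HA1, a collagen prolyl hydroxylase subunit, had 56.2, 93.2 and 86.7 CPM in Mi-2 libraries 1, 2 and 3 and 60.01, 107 and 112 CPM in DMSO libraries 1, 2 and 3 (-0.24 ± 0.24). In P4HA1 library 1 was the lowest of each group by a margin larger than the difference between the groups. The related subunit P4HA2 had 24.01 to 30.1 CPM with Mi-2 and 20.997 to 31.5 CPM with DMSO (0.05 ± 0.15). ANKRD37, a small ankyrin repeat protein, had 1.54, 1.595 and 1.59 CPM in Mi-2 libraries 1, 2 and 3 and 1.79, 3.09 and 1.71 CPM in DMSO libraries 1, 2 and 3; the groups were separate at these low values, with 1 high DMSO library (-0.48 ± 0.30, adjusted p = 0.344). NDRG1, a stress-responsive gene, had 283, 230.1 and 259.7 CPM in Mi-2 libraries 1, 2 and 3 and 283, 259 and 240.2 CPM in DMSO libraries 1, 2 and 3 (-0.02 ± 0.10). KDM3A, a histone demethylase, had 88.7, 121 and 118 CPM in Mi-2 libraries 1, 2 and 3 and 66.9, 113 and 106 CPM in DMSO libraries 1, 2 and 3 (0.19 ± 0.19). Both overlapped between groups, and library 1 was the lowest of its group in both groups for KDM3A but not for NDRG1.

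With edgeR 0 of these 11 passed, against 6.03% lower and 5.02% higher of all tested genes. Of the 11, 0 had an unadjusted edgeR p under 0.05, against 4347 of all 16082 tested genes and 9 of 26 further HIF targets. DESeq2 called 0 of the 10 it tested. Limma on log2(TPM + 1) at a mean TPM of at least 1 also tested 10 and called 0. With no filter on low counts edgeR called BNIP3 and ADM lower. DMSO library 2 was the highest of all 6 libraries in 6 of the 11, as in 8 of 17 enzymes, 3 of 6 flux control and export genes and 13 of 26 further HIF targets, against 18.3% of all tested genes. The median ratio between the highest and the lowest library was 1.25 with Mi-2 and 1.69 with DMSO for the HIF genes. It was 1.33 with Mi-2 and 1.297 with DMSO for the enzymes, and 1.26 with Mi-2 and 1.24 with DMSO over the 15950 tested genes with no library at 0. Mi-2 library 1 was the lowest of all 6 libraries in 15 of 17 enzymes and 3 of the 11 HIF genes, against 22.4% of tested genes.

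**Figure D3:**
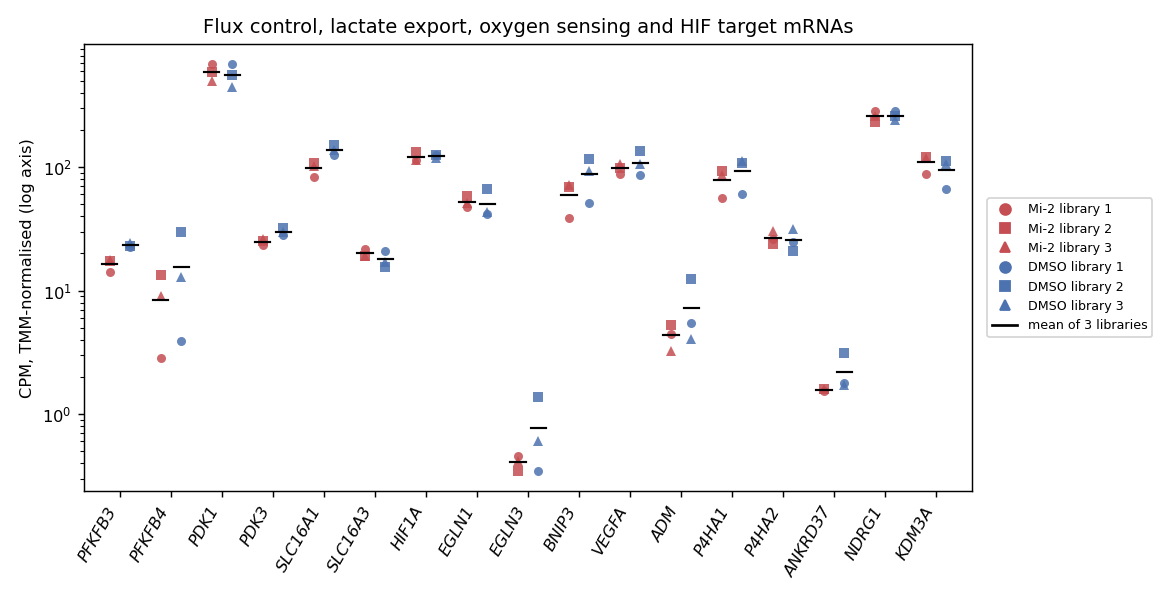
CPM of the 17 tested members outside the enzyme list on a log axis, with Mi-2 libraries left of DMSO libraries, a symbol for each library number and a bar at each mean; CA9 is left out. PFKFB3 and SLC16A1 are separate and passed, while PFKFB4, EGLN3, BNIP3 and ADM spread widely among the DMSO libraries.

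**Figure D4:**
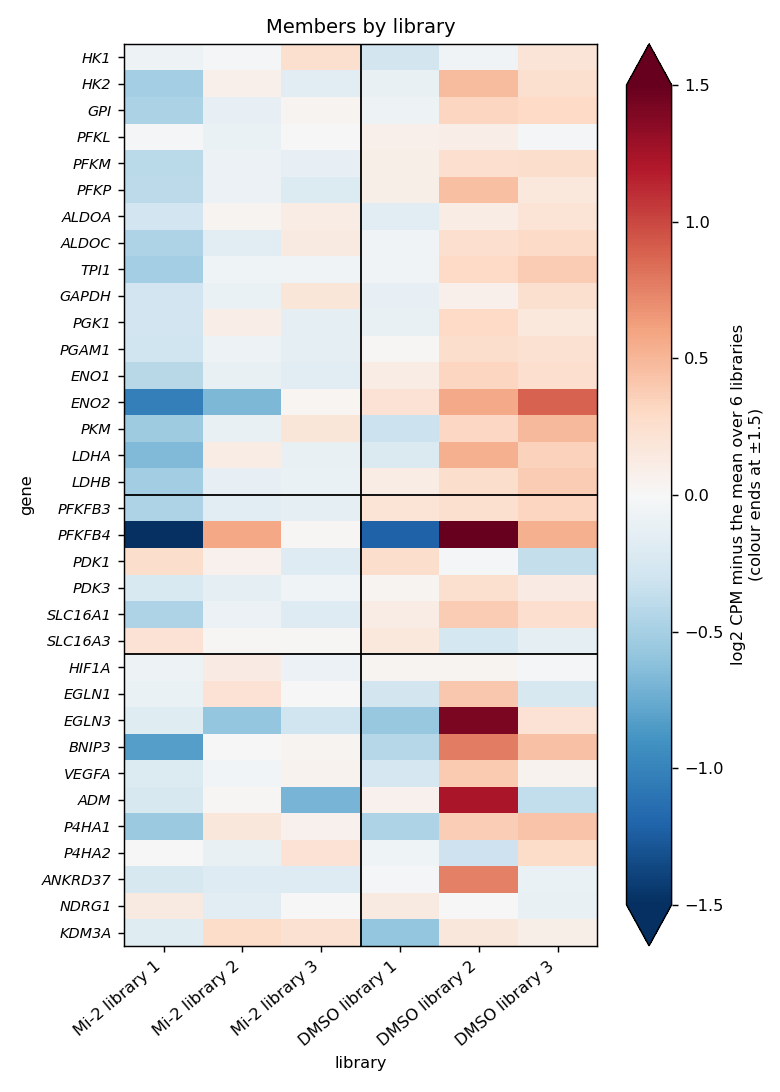
Log2 CPM of the 34 tested members minus each gene's mean over the 6 libraries, with Mi-2 libraries 1 to 3 left of DMSO libraries 1 to 3 and lines between the 3 gene groups. Mi-2 library 1 is lowest of all 6 for 15 of the 17 enzymes, and DMSO library 2 is highest for 8 of the 17 enzymes, 3 of the 6 flux control and export genes and 6 of the 11 HIF genes.

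Levels per length show which of the isozymes among the members had the most mRNA at each step. GAPDH (1978 ± 302 TPM with Mi-2 and 2183 ± 209 TPM with DMSO), ENO1 (1126 ± 112 TPM with Mi-2 and 1563 ± 134 TPM with DMSO), ALDOA (1067 ± 129.5 TPM with Mi-2 and 1140.2 ± 132 TPM with DMSO) and LDHA (854 ± 223 TPM with Mi-2 and 1131 ± 303 TPM with DMSO) had the highest TPM of the enzymes, and ENO2 (7.84 ± 3.34 TPM with Mi-2 and 17.4 ± 4.22 TPM with DMSO) and HK1 (11.5 ± 0.682 TPM with Mi-2 and 11.8 ± 0.795 TPM with DMSO) the lowest. GAPDH and ALDOA differed by less than 1 SD between groups. The 17 enzymes together took 0.610, 0.763 and 0.789% of all TPM in Mi-2 libraries 1, 2 and 3 and 0.755, 0.977 and 0.907% in DMSO libraries 1, 2 and 3, values that overlap.

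HK2 made up 67.2, 74.9 and 69.1% in Mi-2 libraries 1, 2 and 3 and 72.8, 78.3 and 74.8% in DMSO libraries 1, 2 and 3 of hexokinase TPM (HK1 and HK2). PFKP made up 49.9, 54.9 and 52.3% in Mi-2 libraries 1, 2 and 3 and 55.2, 63.7 and 56.3% in DMSO libraries 1, 2 and 3 of phosphofructokinase TPM, lower in each Mi-2 library than in any DMSO library. PFKL, which did not pass the test, had a higher share in each Mi-2 library, with a mean of 31.5 ± 2.40% with Mi-2 and 25.5 ± 3.10% with DMSO (SD, n = 3 each). SLC16A1 made up 73.6, 78.8 and 77.9% in Mi-2 libraries 1, 2 and 3 and 80.5, 86.2 and 85.02% in DMSO libraries 1, 2 and 3 of the TPM of both transporters, also without overlap, a mean difference of -7.15 percentage points. LDHA had 75.1, 80.3 and 77.5% in Mi-2 libraries 1, 2 and 3 and 72.4, 80.05 and 76.2% in DMSO libraries 1, 2 and 3 of lactate dehydrogenase TPM (LDHA and LDHB), with overlapping groups. ENO1 made up at least 98.7% of the TPM of ENO1 and ENO2 in every library. ENO3, an enolase gene outside the members, was not in that sum. It had 10.9 ± 0.529 TPM with Mi-2 and 10.5 ± 1.90 TPM with DMSO. A share can change with either gene of the pair.

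**Figure D5:**
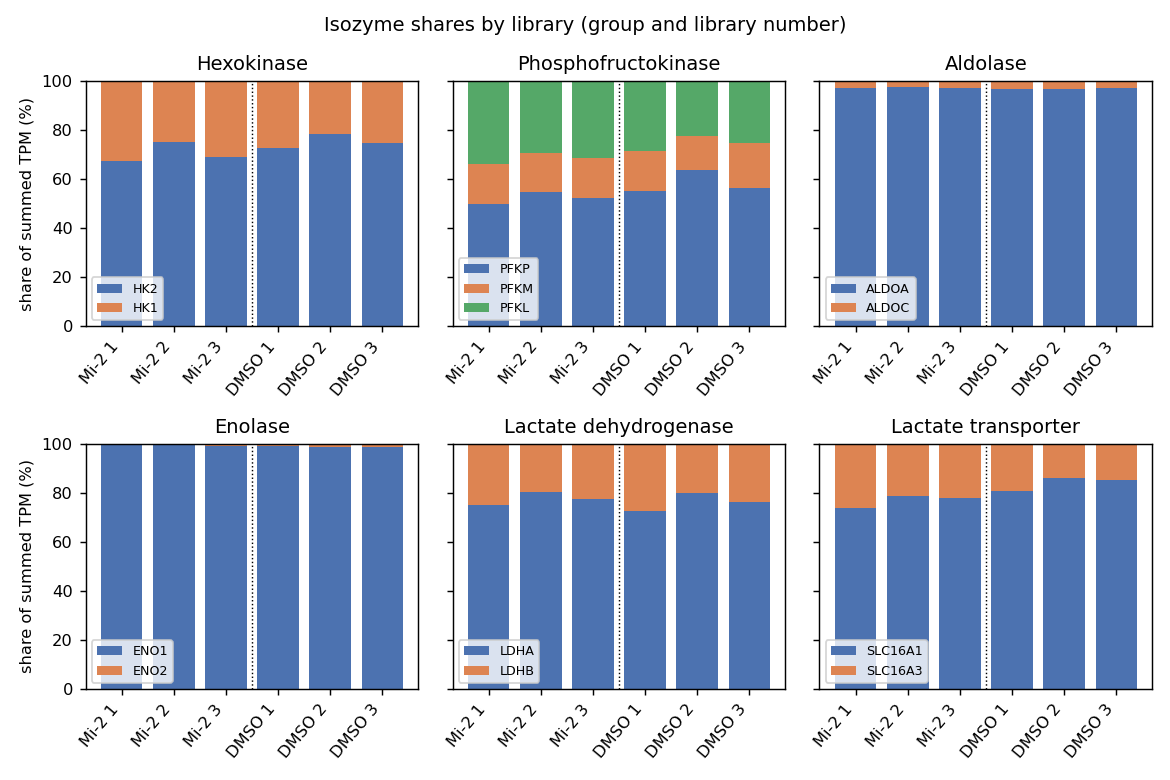
Share of each isozyme in the summed TPM of the isozymes drawn for its step (y axis, %), per library, with Mi-2 libraries 1 to 3 left of the dotted line and DMSO libraries 1 to 3 right of it. PFKP and SLC16A1 shares are lower in all Mi-2 libraries than in any DMSO library, while the lactate dehydrogenase split overlaps.

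Genes around the pathway were read from further lists, which like the members were chosen with earlier results known. Among 28 other genes of glucose entry and glycolysis, 17 could be tested, and the median was -0.00178. Of these 17, 1 was called lower (5.88%, near the 6.03% of all tested genes) and none higher (5.02% of all tested genes). The call was SLC16A7 (MCT2), a high-affinity transporter for pyruvate and lactate (30.5 ± 4.87 CPM with Mi-2 and 43.1 ± 3.95 CPM with DMSO, -0.50 ± 0.13, edgeR adjusted p = 0.0335). SLC2A1 (GLUT1), the main glucose importer of most cells, had 26.8, 33.1 and 31.6 CPM in Mi-2 libraries 1, 2 and 3 and 35.2, 46.9 and 40.4 CPM in DMSO libraries 1, 2 and 3. Every Mi-2 library was below every DMSO library, but SLC2A1 did not pass (-0.42 ± 0.13, adjusted p = 0.0613). TIGAR, named like SLC2A1 after its values were seen, lowers fructose 2,6-bisphosphate and stood at 18.4 ± 2.31 CPM with Mi-2 and 24.5 ± 1.27 CPM with DMSO (-0.41 ± 0.12, adjusted p = 0.0556).

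Of 10 genes of pyruvate import, oxidation and carboxylation 3 fell and none rose, against 6.03% lower and 5.02% higher of all tested genes, with a median of -0.25. DLAT (146 ± 4.43 CPM with Mi-2 and 181 ± 5.27 CPM with DMSO, -0.31 ± 0.08) and DLD (-0.33 ± 0.09) encode subunits of the pyruvate dehydrogenase complex, and PC (-0.46 ± 0.12) encodes pyruvate carboxylase, which feeds oxaloacetate to the citric acid cycle. The calls of DLAT and DLD were lost with any library left out (adjusted p up to 0.162), and that of PC in 4 of 6 such fits. In the pentose phosphate branch, PGD, the enzyme that releases ribulose 5-phosphate, fell without overlap (82.5, 109 and 106 CPM in Mi-2 libraries 1, 2 and 3 and 122, 153 and 151 CPM in DMSO libraries 1, 2 and 3, -0.52 ± 0.13, adjusted p = 0.0311). It was the only call among 8 genes of that branch (12.5%), against 6.03% called lower of all tested genes.

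In the HIF complex and its degradation, 1 of 10 tested genes rose and 1 fell, against 5.02% higher and 6.03% lower of all tested genes. ARNT, the stable HIF1 subunit, had 202, 183 and 178 CPM in Mi-2 libraries 1, 2 and 3 and 154, 141 and 149 CPM in DMSO libraries 1, 2 and 3 and rose 1.27-fold (0.34 ± 0.09, edgeR adjusted p = 0.0326). VHL, which recognises hydroxylated HIF, had 75.04, 71.3 and 74.6 CPM in Mi-2 libraries 1, 2 and 3 and 104, 86.9 and 109 CPM in DMSO libraries 1, 2 and 3 and fell 1.36-fold (-0.44 ± 0.10, adjusted p = 0.0215). Both were separate between groups. Of 26 further HIF targets tested, 2 rose and 2 fell, 7.69% each and near the shares over all tested genes, with a median of -0.16. CITED2, an inhibitor of HIF that HIF induces (132 ± 26.4 CPM with Mi-2 and 83.8 ± 15.5 CPM with DMSO, 0.66 ± 0.16), and KDM4C, a histone demethylase (0.42 ± 0.10), rose. STC2, the glycoprotein stanniocalcin (-0.44 ± 0.09), and GBE1, the glycogen branching enzyme (-0.48 ± 0.13), fell. Library 1 was the lowest of its group in both groups for 17 of these 26.

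Of 6 glucose-responsive factors tested, 1 rose and 2 fell, against 5.02% higher and 6.03% lower of all tested genes. MAX (0.07 ± 0.11), MLXIP (0.18 ± 0.10) and ARRDC4 (-0.07 ± 0.13, edgeR adjusted p = 0.788) were not called, and MLXIPL had too few counts to test. TXNIP is an inhibitor of glucose uptake whose transcription follows glucose phosphates inside the cell. It had 448, 511 and 430.2 CPM in Mi-2 libraries 1, 2 and 3. In DMSO libraries 1, 2 and 3 it had 309, 313 and 288 CPM. Every Mi-2 library was above every DMSO library, and TXNIP rose 1.53-fold (0.61 ± 0.09, edgeR adjusted p = 0.00595), a call kept with any library left out (adjusted p up to 0.0301). MLX, a partner of the factor that acts on TXNIP, fell (79.01 ± 3.42 CPM with Mi-2 and 95.99 ± 1.06 CPM with DMSO, -0.28 ± 0.08), and MYC fell to 332, 338 and 399 CPM in Mi-2 libraries 1, 2 and 3, against 461, 506 and 499.6 CPM in DMSO libraries 1, 2 and 3 (-0.46 ± 0.10). The call of MLX was lost with any library left out (up to 0.155), and those of MYC, ARNT, VHL, CITED2, KDM4C, STC2, GBE1, SLC16A7 and PGD in 3 to 5 of the 6 such fits (up to 0.154), among them in every case the fit without Mi-2 library 1.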

How the data were processed

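The deposited tables hold estimated counts and TPM values per Ensembl gene for 6 libraries, without pooling. Per the submitters' processing notes, fastp 0.19.5, HISAT2 2.1.0, StringTie 2.1.0, RSEM 1.3.3 and the build GRCh38.p13 were used, in roles not given in the sources used here. Strand and RNA selection are likewise not given. The authors' estimated counts are partly fractional and unscaled, and the deposited TPM values are scaled for gene length. Total counts ran from 19980700 to 23756700, which limits what can be seen for genes with few counts. Libraries within a group differed by a chi-square of 15.0 to 21.1 per degree of freedom, well above counting noise, so none was a copy.

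Counts were rounded, filtered with filterByExpr (minimum count 10, minimum total 15) and scaled by TMM. Mi-2 was set against DMSO with edgeR 4.0.16 in R 4.3.3 (quasi-likelihood test, treatment as the only term, 6 libraries), with Benjamini-Hochberg adjustment over 16082 genes and a threshold of 0.05. The common biological coefficient of variation was 14.2%. Symbols came from a table matching 62625 of the IDs, coordinates from GENCODE 29. Members and lists were chosen with earlier results of these data known. Named were all members, with values per library at least for called members and the main isozyme of each step, and the called genes of the other lists.

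Alternatives were RLE scaling, DESeq2 1.42.0, no filter on low counts, limma 3.58.1 with a trend on log2(TPM + 1) or log2(TPM + 0.1) at a mean TPM of at least 1 or with no TPM filter, a block for library number, and leaving out 1 library at a time. Limma's fold changes refer to log2(TPM + pseudocount) and are too small for genes of low TPM. A fit without both libraries numbered 1 was added after seeing the data.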

Additional observations from a re-analysis of the deposited data

How the results depend on the processing

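The 7 called members had negative values in every fit, and the medians of all tested genes moved by under 0.1 (log2). RLE scaling and DESeq2 kept each count of calls within 1.5 times. Counts over all genes (808 higher and 969 lower) became 1221 and 1541 without a filter on low counts, 229 and 381 with limma on log2(TPM + 1), 249 and 398 with 0.1 added, 0 and 0 without the TPM filter (3808 genes at an unadjusted p under 0.05), and 165 and 176 without both libraries numbered 1. Leaving out 1 library gave 216 to 715 higher and 302 to 866 lower. The 5 enzymes became 11 without a filter on low counts, 1 and 1 with limma at either pseudocount, 0 without the TPM filter, 0 without both libraries numbered 1, and 0 to 6 with 1 library left out. The 2 flux and export genes became 0 in all 3 limma fits, 0 without both libraries numbered 1 and 0 to 2 with 1 library left out. The HIF list gained 2 calls (BNIP3 and ADM) without a filter on low counts. The cause of these changes was not tested.

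Libraries share numbers between the groups but the labels name no pairs. Deviations from the group means correlated at 0.409, 0.0593 and 0.261 for numbers 1, 2 and 3 over all tested genes (0.676, 0.144 and 0.353 over genes with a mean log2 CPM of at least 3, where every library correlated best with its own number), and since number 2 stayed under 0.1 over all genes the numbers were not taken as pairs. With the replicate block, 1791 genes were higher and 2035 lower, and 13 enzymes (all but HK1, PFKL, ALDOA and GAPDH), 4 flux and export genes and 1 HIF gene (BNIP3) were called lower.

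Some members that were not called changed sign. HK1 was -0.0350, -0.0377 and -0.0350 in the limma fits and NDRG1 0.26 in each. Without both libraries numbered 1, HIF1A was 0.0121 and EGLN1 -0.00191. With 1 library left out, HK1 ran from -0.0273 to 0.20, ALDOA from -0.19 to 0.0227, PFKFB4 from -1.38 to 0.00477, PDK1 from -0.0727 to 0.24, HIF1A from -0.11 to 0.00512, EGLN1 from -0.0728 to 0.31, VEGFA from -0.29 to 0.0334, P4HA2 from -0.0764 to 0.22, NDRG1 from -0.0902 to 0.0545 and KDM3A from -0.00593 to 0.33. With 1 library left out, the share difference ran from -7.65 to -3.38 percentage points for PFKP (nearest 0 without DMSO library 2), from -8.83 to -5.57 for SLC16A1, from -7.16 to -3.30 for HK2 and from -0.50 (without DMSO library 1) to 3.34 for LDHA. Other alternatives do not apply to shares.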
